A study of Mus musculus with 7 samples.

Results

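The genes described here are 9 genes of the gut's pacemaker cells and of Pdgfra-type stroma, namely Kit, Kitl, Ano1, Etv1, Gjc1, Pdgfra, Pdgfrb, Pdgfa and P2ry1, out of 18194 genes measured in developing and adult mouse colon. They were taken as a list of names, with no threshold on expression but with earlier results of these data known. Of the 9, 8 had at least 1 probe set that belongs to no other gene, with 18 such probe sets in all. Etv1 had only probe sets that the annotation also gives to the pseudogene Gm5454 and is described apart.

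RNA came from colon of inbred C57BL/6 mice, with 1 Affymetrix Mouse Genome 430 2.0 array for every embryonic day from E13.5 to E18.5 (6 arrays) and 1 for adults 8 weeks after birth. All 7 groups share strain and tissue, with no mutation or treatment named. The sources used here do not say how many animals gave each RNA. Values are log2 signals after RMA, the standard background correction, quantile normalization and probe summary for these arrays, and because probes differ in how well they bind, levels were compared between stages and never between probe sets. With no replicates, a straight line with embryonic day as the predictor was fitted to the 6 embryonic arrays with limma. The error was the scatter around it, which the eBayes step of limma draws toward the scatter typical of all genes. Hence a p-value weighs a slope or an adult difference against that scatter and not against the spread between animals. The slope is given in log2 units per day, and the adult difference is the adult array minus the level fitted at E18.5. A slope was called at an adjusted p under 0.05, and an adult difference also had to reach 1 log2 unit, which is a 2-fold change.

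Interstitial cells of Cajal are the cells that set the electrical rhythm of gut muscle, and they arise from the gut mesenchyme. They need the receptor tyrosine kinase Kit, which binds the Kit ligand made by neighbouring cells, and they carry the calcium-activated chloride channel Ano1, through which the pacemaker current flows. Cells that carry Pdgfra, a receptor for platelet-derived growth factors, lie beside them in the muscle layers, where they respond to purine transmitters through the P2Y1 receptor, and also lie under the epithelium. Both kinds of cell are a minority in the wall of the colon.

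Kit and Pdgfra are neighbours on the genome. In the GRCm38.p6 assembly Pdgfra lies at chr5:75151322-75198206 and Kit at chr5:75574987-75656722, 376.8 kb apart, with 0 protein-coding genes between them. The promoters of the pacemaker receptor, its ligand, the chloride channel and the stromal receptor are shown because these genes define the pacemaker and stromal cells and their signals. Each is the 250 bases before a RefSeq transcription start (GRCm38.p6), written 5′ to 3′ along the gene, and capitals mark a GC box (GGGCGG or CCGCCC) or a TATA box (TATAAA or TTTATA).
Kit (chr5:75574737-75574986, plus strand): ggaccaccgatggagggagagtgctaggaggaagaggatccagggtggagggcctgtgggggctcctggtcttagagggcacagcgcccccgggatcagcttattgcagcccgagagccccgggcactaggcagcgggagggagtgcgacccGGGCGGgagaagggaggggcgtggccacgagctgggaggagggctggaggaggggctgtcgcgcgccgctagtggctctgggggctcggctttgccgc
Kitl (chr10:100015571-100015820, plus strand): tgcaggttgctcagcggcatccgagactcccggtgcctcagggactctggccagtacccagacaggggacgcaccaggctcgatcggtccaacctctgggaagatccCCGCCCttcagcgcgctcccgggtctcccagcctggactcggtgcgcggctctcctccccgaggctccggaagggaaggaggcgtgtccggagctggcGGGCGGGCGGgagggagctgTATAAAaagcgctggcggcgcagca
Ano1 (chr7:144738574-144738823, minus strand): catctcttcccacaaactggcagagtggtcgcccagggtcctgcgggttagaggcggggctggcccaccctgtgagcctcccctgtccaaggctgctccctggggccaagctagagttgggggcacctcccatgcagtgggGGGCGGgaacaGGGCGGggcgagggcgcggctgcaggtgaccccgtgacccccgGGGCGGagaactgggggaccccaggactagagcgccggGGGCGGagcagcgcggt
Pdgfra (chr5:75152001-75152250, plus strand): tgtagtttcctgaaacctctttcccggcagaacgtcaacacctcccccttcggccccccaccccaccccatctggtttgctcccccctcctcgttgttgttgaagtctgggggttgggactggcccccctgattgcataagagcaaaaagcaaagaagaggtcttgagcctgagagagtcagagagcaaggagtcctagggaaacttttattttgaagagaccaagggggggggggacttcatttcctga

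Ano1 held 4 GC boxes, Kitl held 3 and Kit held 1, while Pdgfra held 0. Across 27025 promoters of the same length, 32.94% held a GC box on either strand. The Kitl promoter was the only one of these 4 with a TATA box, a motif found in 12.97% of all promoters. The bases G and C made up 70.8% of the Kit promoter, 69.2% of Kitl, 72.0% of Ano1 and 54.4% of Pdgfra, against a median of 52.0% over all promoters. Kit has 2 listed starts, of which only the first listed was used. The Kitl, Ano1 and Pdgfra windows lie at least partly inside the outer bounds of those genes. These counts describe letters in a window and say nothing about which factors bind there.

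Over the embryonic days 4 of the 8 measured genes fell, namely Kit, Gjc1, Pdgfra and Pdgfrb, and 0 rose. Among all genes 10.4% fell and 9.12% rose by the same test. The genes were chosen with earlier results of these data known, so this contrast is a description only. At an unadjusted p under 0.05, 5 of the 8 genes fell and 1, Kitl, rose. Taken as single probe sets, 6 of 18 fell and 0 rose, where 9.55% of all single-gene probe sets fell and 7.24% rose. The median slope of the 8 genes was -0.13 log2 per day and that of all genes was 0.00087. In the adult, Gjc1 and Pdgfrb were lower than the level fitted at E18.5 by the 2-fold rule and 0 genes were higher, against 3.26% of all genes lower and 4.23% higher. Of the 18 probe sets, 2 were lower in the adult and 0 were higher, against 4.21% and 3.94% of all probe sets. In RNA from whole colon, fewer cells of a type and less RNA per cell cannot be told apart.

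**Figure D1:**
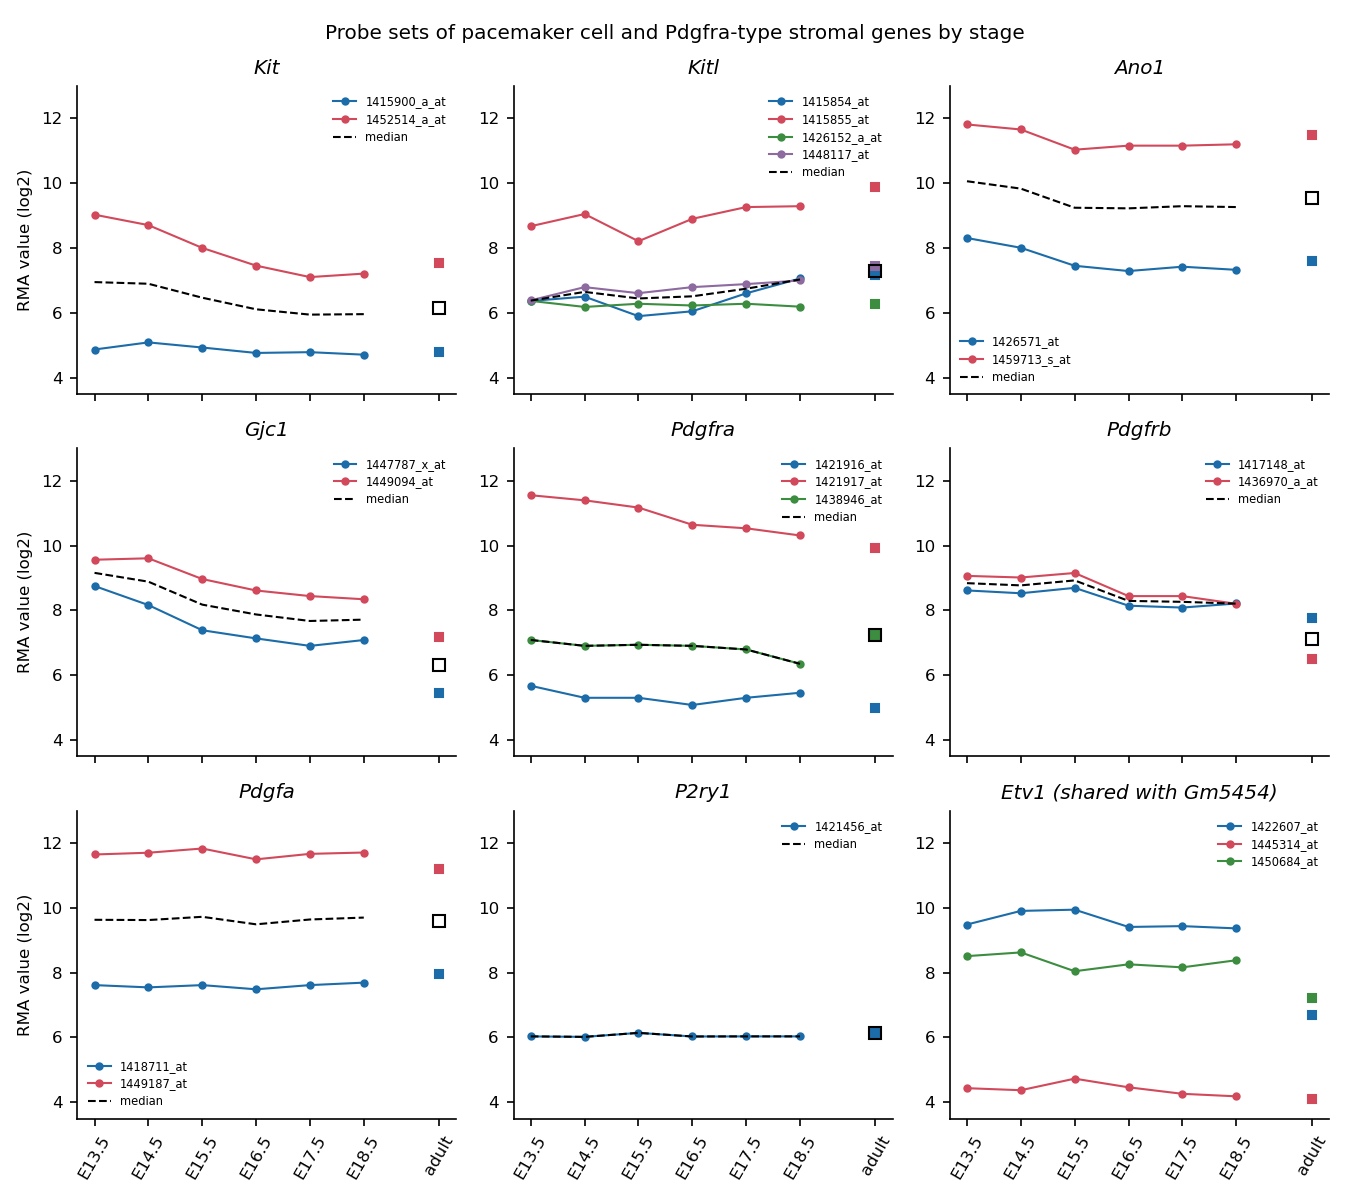
Log2 RMA signal (vertical axis) of each of the 18 single-gene probe sets on the 7 arrays (horizontal axis, E13.5 to E18.5 and adult), with 1 panel per gene; coloured lines are probe sets, the dashed line and open square are their median, and the last panel holds the 3 shared probe sets of Etv1. Kit, Gjc1 and Pdgfra each have a probe set that descends over the embryonic days, and Gjc1 and Pdgfrb drop again in the adult.

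Kit, the receptor that interstitial cells of Cajal depend on, fell over the embryonic days. Its bright probe set, 1452514_a_at, read 9.03, 8.71, 8.01, 7.46, 7.11 and 7.21 from E13.5 to E18.5 and 7.53 in the adult. The first 2 embryonic arrays were highest and the last 2 lowest, a 3.53-fold fall from E13.5 to E18.5, and the adult lay between E15.5 and E16.5. The slope was -0.41 ± 0.05 (SE) log2 per day (limma adjusted p = 0.0040). The dim probe set, 1415900_a_at, read 4.87, 5.09, 4.93, 4.77, 4.79 and 4.71 from E13.5 to E18.5 and 4.80 in the adult. Its slope of -0.05 did not pass (limma adjusted p = 0.242).

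Over both probe sets the median for Kit was 6.95, 6.90, 6.47, 6.11, 5.95 and 5.96 from E13.5 to E18.5 and 6.17 in the adult. That is a 1.98-fold fall, at -0.23 ± 0.03 (SE) log2 per day (limma adjusted p = 0.0044), so the size of the fall depended on which probe set was read. The largest step, -0.43 from E14.5 to E15.5, was just under the 0.44 by which 2 arrays had to differ given the scatter around the line. This limit is a 95% bound for a single pair of arrays, not adjusted for taking the largest of 5 steps or for the number of genes. Neighbouring stages of Kit therefore could not be set apart, while E13.5 and E18.5 could. The Kit slope was called under each of the 12 alternatives tried, including each array left out in turn. The 12 also count the addition of Etv1 to the genes fitted, which could hardly alter Kit. The adult was 0.36 log2 above the fitted E18.5 level (95% interval -0.03 to 0.75, limma adjusted p = 0.195).

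Kitl encodes the Kit ligand, stem cell factor, and its readings went the other way without passing the test. The brightest Kitl probe set, 1415855_at, read 8.68, 9.05, 8.21, 8.90, 9.27 and 9.29 from E13.5 to E18.5 and 9.89 in the adult. Probe set 1448117_at read 6.39, 6.80, 6.61, 6.80, 6.89, 7.0 and 7.45 in the same order, and 1415854_at read 6.37, 6.5, 5.90, 6.05, 6.60, 7.06 and 7.16. In these 3 probe sets the adult array was the highest of the 7 and E15.5 lay below E14.5. The other one, 1426152_a_at, stayed between 6.18 and 6.37. The gene median went from 6.38 on the E13.5 array to 7.03 on the E18.5 array and 7.31 in the adult, with a slope of 0.10 ± 0.03 (SE) log2 per day (limma adjusted p = 0.0759). Receptor and ligand thus had slopes of opposite sign, and only that of the receptor was called. A test of the difference between the slopes was not run. Without the E14.5 array, 1448117_at alone passed. The lower E15.5 readings came in an interval when 5.80% of all genes were lower by at least 0.5 log2.

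Ano1, the chloride channel of the pacemaker current, read lower from E15.5 on, without a call for the gene. Probe set 1426571_at read 8.31, 8.01, 7.45, 7.29, 7.43 and 7.33 from E13.5 to E18.5 and 7.61 in the adult. Probe set 1459713_s_at read 11.81, 11.66, 11.04, 11.16, 11.16, 11.20 and 11.48. Both were highest at E13.5 and E14.5, flat from E15.5 to E18.5 and a little higher in the adult, and they tracked each other over the 7 arrays (Pearson r = 0.93). For the gene, the step from E14.5 to E15.5 was -0.59 log2 out of -0.80 over the whole embryonic series, a 1.74-fold difference. That step was under the 0.64 needed to set 2 arrays apart. Across all genes 5.80% were lower by at least 0.5 log2 in that interval, more than in any other embryonic interval. The gene slope of -0.16 ± 0.05 (SE) log2 per day missed the threshold (limma adjusted p = 0.0503), and 1426571_at alone passed at -0.19 ± 0.05 (limma adjusted p = 0.0337). Without the E15.5 array the gene slope passed as well (limma adjusted p = 0.015).

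Gjc1 encodes Cx45, a gap junction protein that couples muscle and pacemaker cells, and by gene medians it had the steepest slope of the 8 genes, although the bright Kit probe set was steeper than either of its own. Probe set 1449094_at read 9.56, 9.61, 8.97, 8.61, 8.44 and 8.34 from E13.5 to E18.5 and 7.17 in the adult. Probe set 1447787_x_at read 8.75, 8.16, 7.39, 7.13, 6.90, 7.08 and 5.46, and the suffix x marks probes that may also bind other transcripts. In both, the adult lay below every embryonic array. The gene fell 2.72-fold from E13.5 to E18.5, at -0.32 ± 0.05 (SE) log2 per day (limma adjusted p = 0.0051). Both probe sets passed the slope test, and only 1449094_at passed the adult test. The gene's step of -0.71 from E14.5 to E15.5 exceeded the 0.64 limit for 2 arrays, which is not adjusted for taking the largest step. The adult was a further -1.13 log2 from the fitted E18.5 level (95% interval -1.69 to -0.57, limma adjusted p = 0.0178). That adult call was lost without E17.5 (limma adjusted p = 0.051) and without E18.5, where the difference was -0.84.

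Etv1 is an ETS transcription factor that interstitial cells of Cajal require. The pair of its probe sets whose accession is an Etv1 transcript in RefSeq gave the following readings, and signal from Gm5454 cannot be told apart there. Probe set 1422607_at read 9.48, 9.90, 9.94, 9.41, 9.43 and 9.36 from E13.5 to E18.5 and 6.69 in the adult. Probe set 1450684_at read 8.51, 8.62, 8.04, 8.26, 8.16, 8.38 and 7.23. The adult array was the lowest in each, below all embryonic arrays, while the embryonic arrays showed little trend. With these probe sets taken as Etv1, an alternative chosen after seeing the data, the slope was -0.06 ± 0.03 (SE) log2 per day (limma adjusted p = 0.226) and the adult difference was -1.85 (95% interval -2.22 to -1.47, limma adjusted p = 0.000482). The last of its probe sets was dim, between 4.11 and 4.73.

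**Figure D2:**
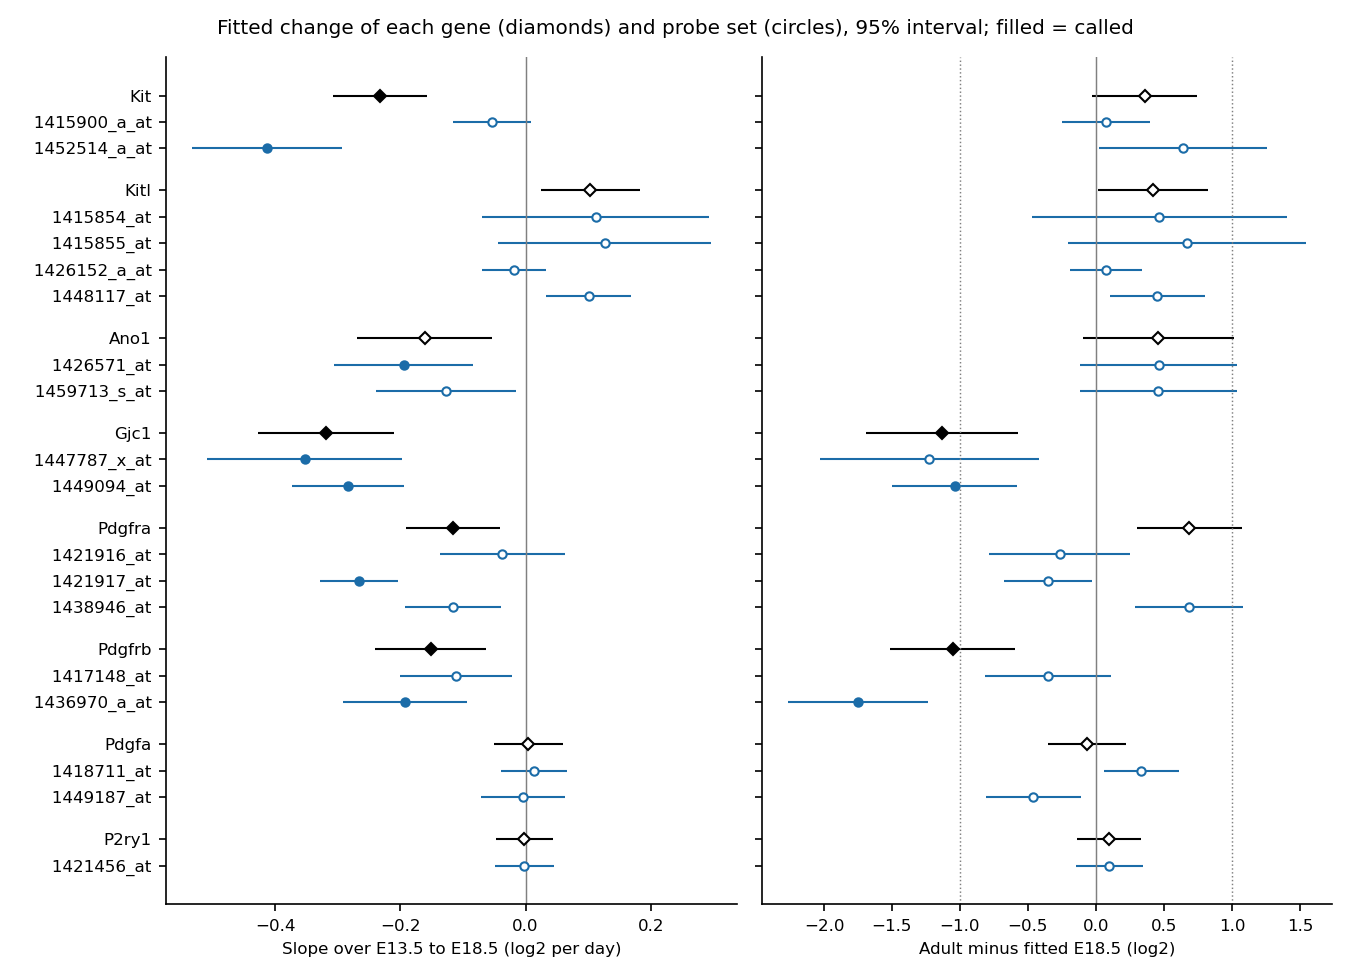
Slope over the embryonic days (left, log2 per day) and adult minus fitted E18.5 level (right, log2) for each gene (diamonds) and each probe set (circles) with 95% intervals; filled symbols passed the test and dotted lines mark the 2-fold bound. Kit, Gjc1, Pdgfra and Pdgfrb have filled slopes, and Gjc1 and Pdgfrb have filled adult differences.

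Pdgfra, the receptor that names the stromal cells, fell in its bright probe set throughout. Probe set 1421917_at read 11.55, 11.39, 11.17, 10.64, 10.53 and 10.31 from E13.5 to E18.5 and 9.91 in the adult. Each array was lower than the one before it. The fall to E18.5 was 2.36-fold, at -0.27 ± 0.03 (SE) log2 per day (limma adjusted p = 0.0024). Probe set 1438946_at read 7.09, 6.91, 6.94, 6.91, 6.79, 6.35 and 7.23, so that its adult reading was its highest. Probe set 1421916_at was dim at 5.67, 5.30, 5.30, 5.08, 5.30, 5.46 and 5.0.

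As the median of 3, the gene value of Pdgfra is that of 1438946_at, with a slope of -0.12 ± 0.03 (SE) log2 per day (limma adjusted p = 0.0453). This call was lost in 8 of 12 alternatives, which count the addition of Etv1 to the genes fitted. The slope of 1421917_at was called in all 10 run on probe sets. The adult difference of the gene was 0.69 log2 (limma adjusted p = 0.0285), under the 2-fold rule. In 1421917_at the adult difference was -0.35 (limma adjusted p = 0.135), so the direction in the adult depended on the probe set. The 3 probe sets did not track one another (Pearson r from -0.32 to 0.63 over 7 arrays). No direction for adult Pdgfra is therefore given.

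Pdgfrb encodes the receptor typical of pericytes and vascular mural cells, and it read lower late in the embryo and lower again in the adult. Probe set 1436970_a_at read 9.06, 9.01, 9.15, 8.44, 8.44 and 8.20 from E13.5 to E18.5 and 6.48 in the adult. Probe set 1417148_at read 8.61, 8.53, 8.69, 8.14, 8.09, 8.21 and 7.75. The first 3 embryonic arrays lay above the last 3 in both probe sets, and the adult lay below all of them. For the gene, the step of -0.63 from E15.5 to E16.5 was as large as the whole embryonic fall of -0.63. It exceeded the 0.53 limit, which is not adjusted for taking the largest step. Only a line was fitted, so a single step and a steady fall were not told apart. The gene slope was -0.15 ± 0.04 (SE) log2 per day (limma adjusted p = 0.0322). Probe set 1436970_a_at passed both the slope and the adult test, while 1417148_at passed neither. Their slopes were -0.19 and -0.11 log2 per day (limma adjusted p = 0.0241 and 0.0992). The adult difference was -1.05 (95% interval -1.51 to -0.59, limma adjusted p = 0.0112), made up of -1.75 in 1436970_a_at and -0.35 in 1417148_at. Without E18.5 the adult call was lost (-1.01, limma adjusted p = 0.055).

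Pdgfa, a ligand of Pdgfra that gut epithelium makes, was level across the embryo. Its gene median stayed between 9.49 and 9.72 on the 6 embryonic arrays and was 9.58 in the adult, with a slope of 0.00 ± 0.02 (SE) log2 per day (95% interval -0.05 to 0.06, limma adjusted p = 0.931). Its probe sets parted in the adult. Probe set 1449187_at went from 11.70 at E18.5 to 11.20 and 1418711_at from 7.69 to 7.96, neither past the test (limma adjusted p = 0.0807 and 0.101). P2ry1, the P2Y1 receptor, has 1 probe set, and it read 6.03, 6.02, 6.14, 6.03, 6.03, 6.03 and 6.14. Its range of 0.12 log2 was the narrowest among the 8 genes, and the 95% interval of its slope was -0.05 to 0.04.

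The largest embryonic step fell in different intervals by gene median. Kit, Ano1 and Gjc1 made their largest embryonic step from E14.5 to E15.5, when 5.80% of all genes were lower by at least 0.5 log2. That share was higher than in any other embryonic interval. Pdgfrb made its largest from E15.5 to E16.5 and Pdgfra from E17.5 to E18.5, where the Pdgfra step of -0.44 was within the 0.44 limit. The time of the Pdgfra step depended on the probe set, since in 1421917_at the largest was -0.53 from E15.5 to E16.5, beyond its limit of 0.37 and in the same interval as Pdgfrb. From the first to the last embryonic array Kit, Ano1, Gjc1, Pdgfra, Pdgfrb and Kitl differed by more than their limits, and Pdgfa and P2ry1 did not. These limits are not adjusted for the number of genes or steps, and the share of all genes beyond their own limits was not computed. The slopes of Ano1 and Kitl were not called. The count of 4 falling genes depended on single stages. It was 2, Kit and Gjc1, when any single embryonic array other than E15.5 was left out, and 4 without E15.5, with Ano1 in place of Pdgfra.

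The adult array stood apart in other ways. The 5′ minus 3′ signal of Gapdh control probes, which drops when RNA is degraded or poorly copied, was -2.41 in the adult and between -1.59 and -1.29 in the embryo. Of the 4 adipocyte markers measured the mean was 6.69 in the adult against 5.03 to 5.15 in the embryo, with 2 of 4 higher, and the defining marker Adipoq was at 7.45 against 4.24 to 4.49. Of the 4 pancreatic acinar markers measured the mean was 6.57 against 5.45 to 5.65, with 2 of 4 higher. Their part in the adult differences of Gjc1, Pdgfrb and Etv1 was not tested.

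Other genes of interstitial cells of Cajal had slopes of both signs. Of 22 listed, 19 were measured, with 3 falling, 2 rising and 14 not passing over the embryonic days, and a median slope of 0.03 log2 per day. These counts lay near the shares over all genes, of which 10.4% fell and 9.12% rose. Gucy1b1 and Prkg1, a subunit of the nitric oxide receptor and the kinase below it, fell at -0.19 and -0.13 log2 per day, as did the channel Trpm7 at -0.09. Thbs4, a matrix thrombospondin, rose at 0.24 and was 1.51 log2 higher in the adult, and Stim1, a sensor of calcium stores, rose at 0.19. Cckar, a cholecystokinin receptor, was lower in the adult by 2-fold or more, at 7.35 against 8.95 at E18.5.

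Of 23 genes of Kit signalling 20 were measured, with 2 falling, 2 rising and 16 not passing, and a median slope of 0.0015 log2 per day. Here too the counts lay near the 10.4% falling and 9.12% rising among all genes. Dusp6, a phosphatase that ERK signalling induces, read 8.94, 9.0, 8.68, 8.10, 7.98 and 7.86 from E13.5 to E18.5 and 8.33 in the adult. It fell at -0.26 ± 0.04 (SE) log2 per day (limma adjusted p = 0.0046). Cbl, a ubiquitin ligase that targets active Kit, fell at -0.21, and Pik3r1 and Stat5a each rose at 0.14. In the adult Fyn, a Src-family kinase, and Cblb were lower, by differences of -1.48 and -1.31 log2.

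Among the other Pdgf ligands and receptors 1 of 4 changed. Pdgfc, another ligand of Pdgfra, read 11.06, 10.78, 10.68, 10.29, 10.23 and 10.03 from E13.5 to E18.5 and 7.95 in the adult, each array lower than the one before. Its slope was -0.20 ± 0.02 (SE) log2 per day (limma adjusted p = 0.0023) and its adult difference was -2.05 (limma adjusted p = 8.9e-05). Pdgfb, Pdgfd and Pdgfrl passed neither test.

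Of 16 other genes of Pdgfra-positive stroma 14 were measured, with 1 falling, 4 rising and 9 not passing. The shares over all genes were 10.4% falling and 9.12% rising. Wnt5a, a Wnt ligand of the mesenchyme, fell from 9.58 on the first embryonic array to 7.76 on the last and 6.32 in the adult. Dpt, the matrix protein dermatopontin, rose from 4.74 on the first embryonic array and 5.41 at E15.5 to 9.36 at E16.5, 10.82 on the last and 11.67 in the adult. F3, tissue factor, rose at 0.35 log2 per day, Ackr4, a chemokine scavenger, at 0.22 and Cd34 at 0.11. Kcnn3, the potassium channel that acts with the P2Y1 receptor, stayed between 7.04 and 7.29 on all 7 arrays, and Foxl1 between 5.03 and 5.48. The receptor Pdgfra and these stromal genes thus had slopes of both signs.

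The families of Gjc1, P2ry1 and Ano1 held few called genes. Over the embryonic days 1 of 13 connexins fell and 2 rose. Of 7 other P2Y receptors 0 fell and 1 rose, as did 1 of 6 other anoctamins, of which 0 fell. Among all genes 10.4% fell and 9.12% rose, and in the adult 3.26% were lower and 4.23% higher. Of 13 connexins measured, Gja1 fell at -0.16 log2 per day, Gjb2 and Gjb1, both of epithelium, rose at 0.29 and 0.13, and Gjd2, a neuronal connexin, was lower in the adult by a difference of -1.28. Gja1, Cx43, read 10.92, 10.93, 10.46, 10.48, 10.26 and 10.18 from E13.5 to E18.5 and 10.53 in the adult. Of 7 other P2Y receptors P2ry6 rose at 0.26 and P2ry14 was 2.19 log2 higher in the adult. Of 6 other anoctamins Ano9 rose at 0.38 and was 1.84 log2 higher in the adult.

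**Figure D3:**
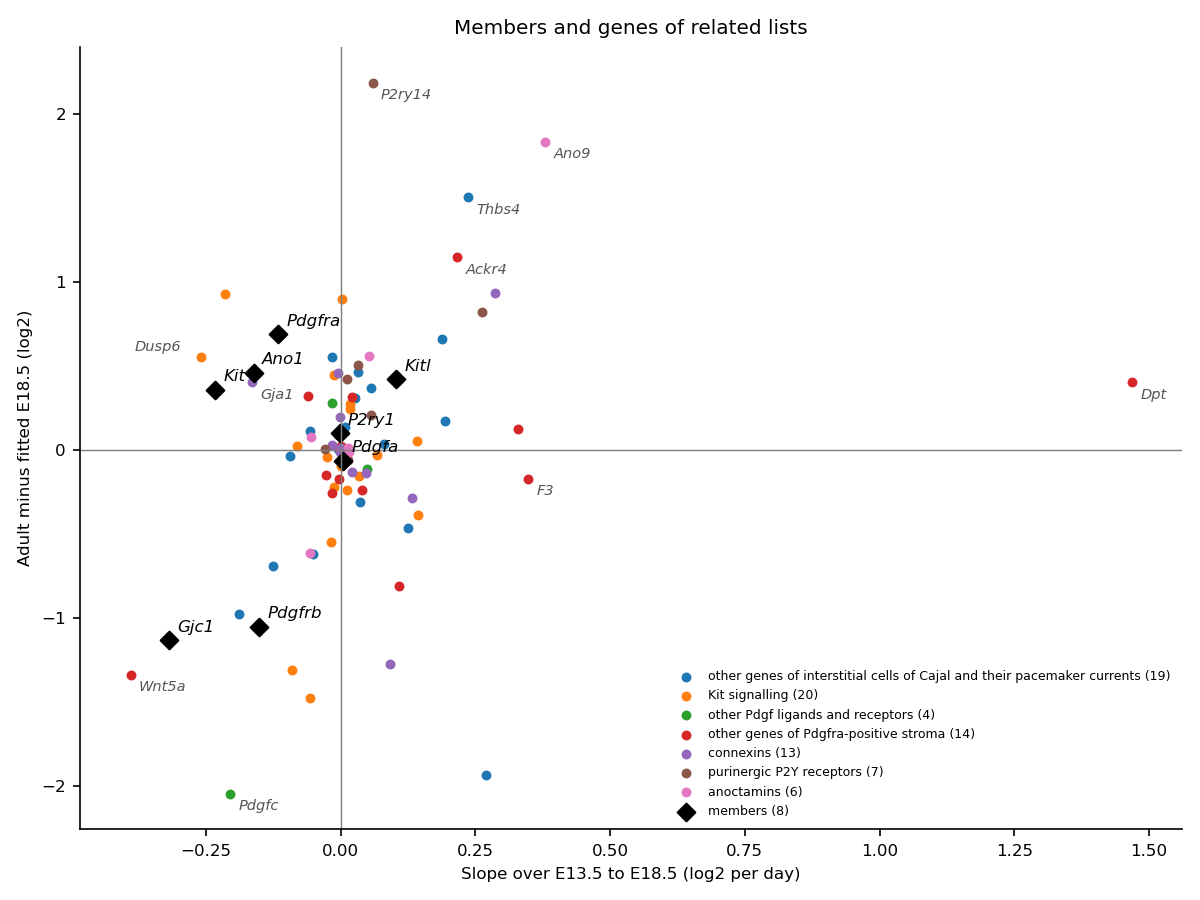
Slope over E13.5 to E18.5 (horizontal axis, log2 per day) against adult minus fitted E18.5 level (vertical axis, log2) for the 8 measured genes (black diamonds) and the genes of 7 related lists (coloured points). Kit, Ano1 and Pdgfra lie left of 0, with adult differences that were not called and, for Pdgfra, differ in sign between probe sets, and Gjc1 and Pdgfrb lie at the lower left with Wnt5a and Pdgfc.

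Kit is also made by mast cells and melanocytes, and Pdgfrb by pericytes. All 11 mast cell markers were measured, their mean stayed between 4.79 and 4.97 in the embryo and was 4.98 in the adult, and 0 fell or rose (1 rose at an unadjusted p under 0.05). The mast cell proteases Cpa3 and Tpsb2 were flat and dim, Tpsb2 between 5.09 and 5.41. All 6 melanocyte markers were measured too, with a mean between 4.94 and 5.04 in the embryo, 5.09 in the adult and 0 called. Of 8 pericyte markers 0 fell and 1, Mcam, rose, and their mean was between 7.07 and 7.31 in the embryo and 6.93 in the adult. Notch3, a receptor of mural cells, was lower in the adult, at 6.81 against 8.73 at E18.5, as Pdgfrb was, while Rgs5 was at 7.80 against 6.79.

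Markers of several other cell types changed in level over the same days, when 10.4% of all genes fell and 9.12% rose. In the adult 3.26% of all genes were lower and 4.23% higher. Of 7 endothelial markers 0 were called in the embryo or the adult. At an unadjusted p under 0.05, 1 of them rose and 2 were lower in the adult. Epithelial markers rose in 9 of 9 genes, their mean going from 9.17 on the first embryonic array to 10.85 on the last, and smooth muscle markers in 7 of 10, from 7.70 to 8.90. Of 9 general mesenchyme markers 3 rose and 1, Twist1, fell in the embryo, with 5 of 9 lower in the adult. Mesothelial markers fell in 3 of 5 genes, with 1, Msln, rising, and their mean went from 7.12 to 6.29 over the same arrays. Of 10 enteric neuron markers 5 rose in the embryo, their mean going from 6.56 to 7.55, and in the adult 5 were lower, 1 was higher and the mean was 6.67. Of 6 enteric glia markers 2 rose and 1 fell in the embryo, and 1, Fabp7, was lower in the adult, at 4.77 against 8.99 at E18.5. The median adult difference of the 6 was 0.03 log2, so the glia markers did not shift as a set. The falls of Kit, Gjc1, Pdgfra and Pdgfrb ran beside these shifts, and the adult differences of Gjc1, Pdgfrb and Etv1 beside those of the neuron and mesenchyme markers. The part of a changing mix of cells was not tested.

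**Figure D4:**
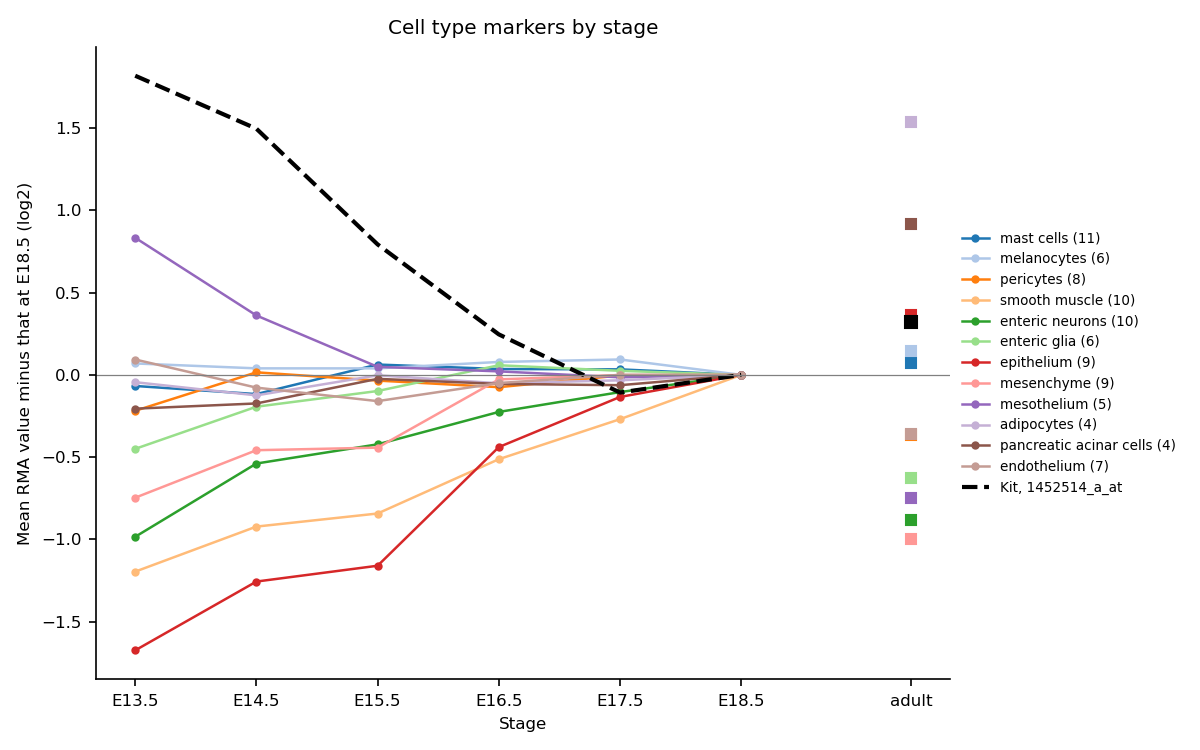
Mean log2 RMA signal of the measured markers of each cell type minus that at E18.5 (vertical axis, log2) on the 7 arrays (horizontal axis), with Kit probe set 1452514_a_at dashed and adult values as squares. Epithelial and smooth muscle means rise over the embryonic days while Kit and the mesothelial mean fall, and adipocyte and acinar means are higher in the adult.

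The genes with levels most like those of Kit over the 7 arrays were Fam183b (Pearson r = 0.988), Akr1d1 (0.986), Tasor2 (0.982), Psme4 (0.982) and Dusp6 (0.973), among 4125 other genes with a range of at least 1 log2 unit. For Ano1 they were Lrig3 (0.979), Zfp566 (0.971), Foxp1 (0.952), Odc1 (0.946) and Ambp (0.942). Lrig3 read 7.81, 7.45, 6.80, 6.70, 6.92 and 6.79 from E13.5 to E18.5 and 7.34 in the adult, with the early drop and the adult upturn of Ano1. For Pdgfra they were Tesk2 (0.931), Ccng2 (0.882), Bcl6 (0.840), Aktip (0.829) and Dnajb4 (0.828), which rests on 1438946_at with its high adult value. Over 0.95 there were 25 genes for Kit, 3 for Ano1 and 0 for Pdgfra. The 7 points of each correlation share arrays and an embryonic order, so these values are descriptions only.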

How the data were processed

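Colon RNA from 7 stages was hybridised to 1 array each. The log2 values the authors deposited came from RMA, run per the labels with affy 1.22.1 in R 2.9.2. The processed table was used unchanged. Of 45101 probe sets, 34958 had 1 gene in the platform annotation, 932 several and 9211 none. Symbols were updated by gene ID through RefSeq (GRCm38.p6), with 18033 of 18195 IDs matched, and a gene is the median of its single-gene probe sets.

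limma 3.58.1 in R 4.3.3 fitted embryonic day plus an adult term on all 7 arrays (4 residual degrees of freedom), with Benjamini-Hochberg adjustment over all genes or all probe sets, and the fit was tested on simulated data. Arrays carry no read depth, and their number limits the precision. Named genes were the 9 members, up to 4 called genes per list with the largest slope or adult difference, and the 5 most similar genes for Kit, Ano1 and Pdgfra. Other genes, namely Trpm7, Cd34, the list genes given as not passing and the cell type markers singled out, were named after their values were seen. The members and lists were chosen with earlier results of these data known. Alternatives were the highest probe set, no dimmest 25%, centred arrays, trended robust eBayes, the late minus the early 3 embryonic days, another adult reference, and each array left out. The addition of Etv1 was a further alternative, chosen after the data were seen.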

Additional observations from a re-analysis of the deposited data

How the results depend on the processing

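Among all values recomputed for the members under the alternatives, 0 reversed a called direction. The 4 falling genes became 2 when the last 3 embryonic days were set against the first 3 (Kit and Pdgfrb), and 2 to 4 with 1 array left out. The count of falling probe sets, 6, ranged from 3 to 8 with 1 array left out, and that of rising ones, 0, from 0 to 1 (Kitl 1448117_at without E14.5). With 1 array left out, genes lower in the adult, 2, ranged from 0 to 2, lower probe sets, 2, from 1 to 3, and higher probe sets, 0, from 0 to 1 (Kit 1452514_a_at without E18.5). With Etv1 added by accession, 3 genes were lower in the adult. Pdgfra was lost with trended robust eBayes, and Ano1 was gained with centred arrays or without the dimmest 25%. The cause was not tested.

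Over all genes, the 1884 falling and 1660 rising became 719 and 645 in the late-minus-early comparison. With 1 array left out they ranged from 856 to 2523 and from 812 to 2076. The 593 genes lower in the adult became 1004 with the highest probe set. No paired analysis was possible because each stage has 1 array. Low signals have no detection call in the deposited values, so how far the dim probe sets of Kit and Pdgfra lay above background is unknown. The same holds for the flat probe sets of Kitl and P2ry1, whose means exceeded those of 52.1% and 48.7% of probe sets.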

Other observations

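Gpr20, a receptor found on interstitial cells of Cajal, was picked here for the shape of its values and passed neither test. It read 8.56, 8.09, 7.60, 7.95, 8.12 and 8.35 from E13.5 to E18.5 and 8.62 in the adult, with its lowest reading at E15.5, and 2 arrays had to differ by 0.97 to be set apart. A straight line gave a slope of -0.02 log2 per day (limma adjusted p = 0.917).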
